A study of Mus musculus with 32 samples.

Results

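The response of the liver to a steatohepatitis diet was compared between WT female and WT male mice, gene by gene. The 16 WT libraries of the 32 deposited were taken, the tables of females and males were joined on the gene symbol, and for every autosomal gene the diet effect in females was subtracted from the diet effect in males. A diet effect is the log2 fold change between CDAHFD, a high fat diet low in methionine whose amino acids are free and from which choline is left out, and normal diet (ND), and the male minus female diet effect is the difference between these log2 fold changes. All 12867 autosomal genes that passed a filter on low counts were tested with the edgeR quasi-likelihood test, with p-values adjusted over all 13416 genes in the fit.

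The study compared WT with Cyp2b-null mice, which lack the Cyp2b10, Cyp2b9 and Cyp2b13 genes, on both diets and in both sexes. The WT mice were C57BL/6 by the labels and C57Bl/6J by the study's methods, bought at 6 weeks of age and 10 weeks old when the diets began. They formed 4 groups of 4 liver libraries, namely ND-fed females, CDAHFD-fed females, ND-fed males and CDAHFD-fed males. Mice ate their diet for 8 weeks, ND with 6.2% fat or CDAHFD with 62% fat and 0.1% methionine. The Cyp2b-null libraries entered only as a repeat of the contrast in other animals.

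The livers of female and male mice differ in the expression of many enzymes, transporters and secreted proteins. Growth hormone reaches the liver in pulses in males and more continuously in females, and the transcription factor STAT5b carries this pattern to genes such as the Mup and Cyp2d9 genes of males and the Cyp2b9 and Cyp2a4 genes of females. A choline-deficient high fat diet blocks export of triglyceride from hepatocytes and brings in macrophages and fibrosis.

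Total counts of the WT libraries ran from 3033628 to 8467124 with a median of 5252567, so that 3 counts stood for 0.354 to 0.989 CPM, the count scaled to library size by edgeR with TMM factors. Xist and the Y-linked genes matched the labelled sex in every library. Females and males were deposited in separate tables, so anything that differed between the making of the tables and sex itself cannot be told apart in a sex difference, while a constant shift of that kind cancels in the male minus female diet effect. CDAHFD-fed male replicate 1 stood apart from its group: its summed CPM over 27 macrophage markers was 1243, against 2130 to 2414 in the other 3, and its summed hepatocyte markers were the highest of the group at 163353 CPM. ND-fed males, which enter every male diet effect, were split. The chi-square per gene between libraries was 7.8 for replicates 1 and 3, 19.1 for replicates 2 and 4, and 27.8 to 62.4 across. Summed lipid-associated macrophage genes were at 35050 and 36531 CPM in replicates 1 and 3, and at 24212 and 22296 CPM in replicates 2 and 4. Mup20, given below, split the same way. Hepatocyte markers were high in all 16 libraries (99274 to 275080 CPM over 22 genes), while 12 of 14 pancreatic acinar genes had 0 counts in every WT group. The labels give n = 4 per treatment group without saying that each library was a separate mouse, and p-values measure only the spread between these libraries, which may be technical.

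The diet effect differed between the sexes for 75 of the 12867 genes, or 0.583% of those tested. In 54 genes (0.42%) the male minus female diet effect was above 0 and in 21 genes (0.163%) it was below 0. Before adjustment, 1249 genes (9.71%) had p-values under 0.05. For comparison, the same fit called the diet effect itself for 3154 genes in females (24.5%) and 4002 genes in males (31.1%), and the median male minus female diet effect over all genes was 0.02. The last gene called was Fam84b with an adjusted p-value of 0.0491, and the next, Cd300c2, had 0.0514. Without CDAHFD-fed male replicate 1 the test called 186 genes, 72 of them among the 75. Without CDAHFD-fed male replicate 2 it called 50 genes, of which 33 were above 0.

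**Figure D1:**
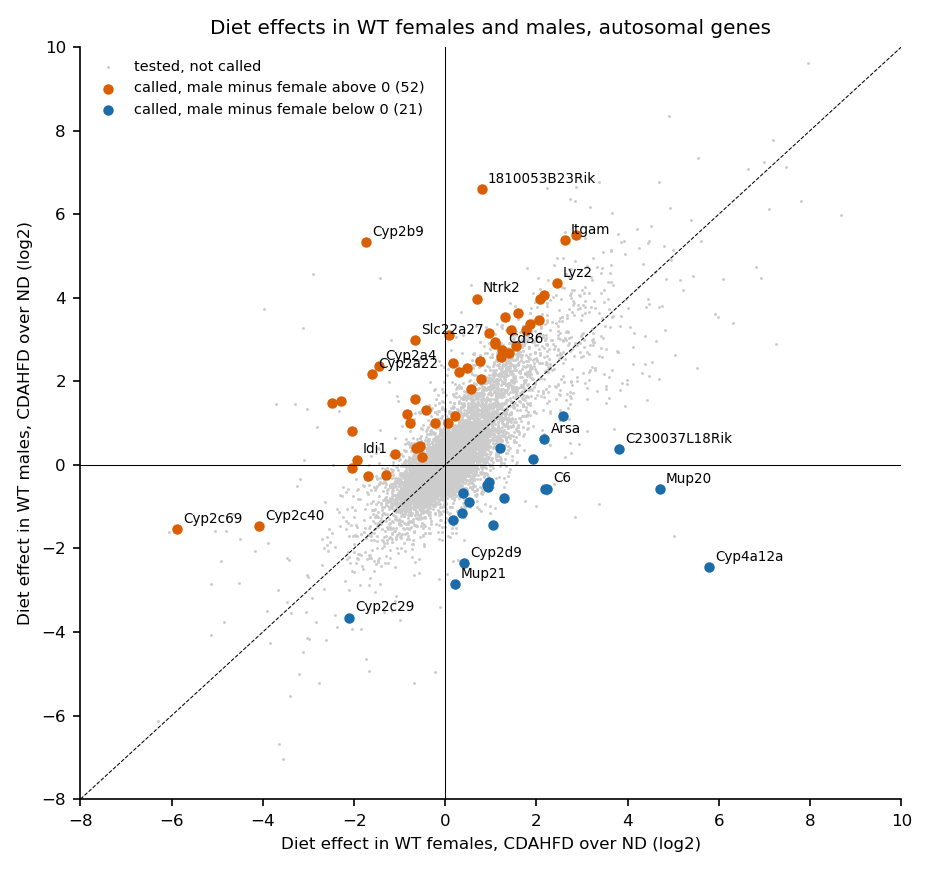
Diet effect (log2, CDAHFD over ND) in WT females on the horizontal axis and in WT males on the vertical axis, 1 point per autosomal gene reported, with 52 of the 54 called genes above 0 in orange and the 21 below 0 in blue. The dashed line marks equal effects; Cyp2b9 and Cyp2a22 lie in the upper left quadrant, lower in CDAHFD-fed females and higher in CDAHFD-fed males, and C6 and Mup20 in the lower right. Positions of 1810053B23Rik and Cyp4a12a are fitted values against groups at or under 3 counts per library and are not measured sizes.

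Most of the 75 called genes also differed between the sexes on ND. Of the 54 above 0, 44 were called lower in males on ND (8.46% of all genes) and 0 higher, and of the 21 below 0, 20 were called higher in males (7.64%) and 0 lower. For the other 10 above 0, among them Cyp51, Idi1 and Glul, and for Cyp2c29 below 0, the sex difference on ND did not pass the test. Among the 54 genes above 0 the median male minus female level was -1.57 (log2) on ND and 0.10 on CDAHFD, and among the 21 below 0 it was 2.16 on ND and 0.25 on CDAHFD. In 41 of the 54 and 20 of the 21 the absolute sex difference was smaller on CDAHFD than on ND, which held for 56.3% of all genes tested. Over all genes the sex difference was called for 2071 on ND (16.1%) and 1184 on CDAHFD (9.2%), an order that turned with limma-voom, which called 1526 and 1807. These levels come from the same libraries as the contrast and are given as a description. The exception among the 21 was Cyp2c29, whose male minus female level was 0.20 on ND and -1.35 on CDAHFD.

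**Figure D2:**
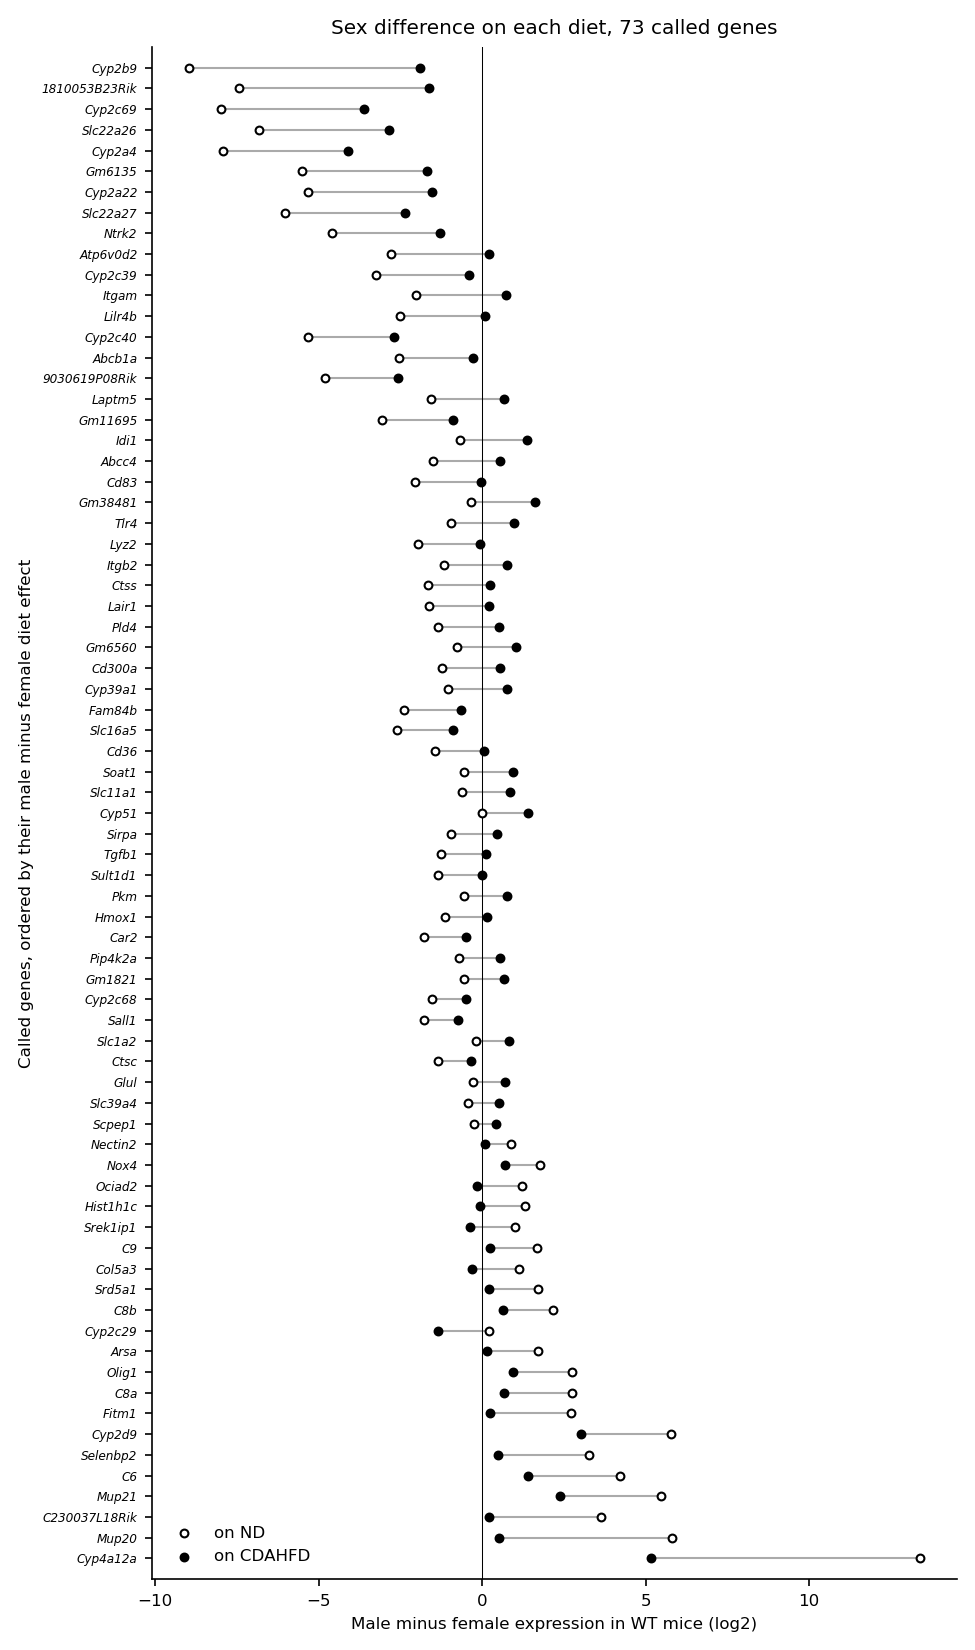
Male minus female expression (log2) of 73 of the 75 called genes in WT mice on ND (open circles) and on CDAHFD (filled circles), ordered by the male minus female diet effect. Filled circles lie nearer to 0 than open circles for 39 of the 52 genes shown above 0 and 20 of the 21 below 0.

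Of the genes listed as female-biased, most fell in females and fewer rose in males. Of 53 listed, 51 were tested and 12 were called, all above 0, against the 0.42% of all genes called in that direction. The diet effect itself was called lower in 32 of the 51 in females (11.7% of all genes) and higher in 3 (12.8%). In males it was called higher in 15 (17.2% of all genes) and lower in 4 (13.9%). The median male minus female diet effect of the 51 was 2.05, or 1.68 when groups with at most 3 counts in every library were put at 3 counts, and 12 of the 51 had such a group.

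Cyp2b9, a cytochrome P450 that is nearly silent in healthy male liver, had the smallest p-value of the 54. It stood at 612, 526, 595 and 607 CPM in ND-fed females and at 252, 182, 158 and 107 CPM in CDAHFD-fed females. In ND-fed males it had 0, 1.16, 0.547 and 3.27 CPM, and in CDAHFD-fed males 69.0, 57.7, 13.8 and 47.6 CPM. No library of an ND-fed group overlapped the CDAHFD-fed group of its sex. Cyp2b9 fell by 1.74 (log2) in females and rose by 5.33 in males, a male minus female diet effect of 7.08 ± 0.66 (SE, adjusted p = 9.01e-06, edgeR). Of its neighbors, Cyp2b10, the phenobarbital-inducible member, fell in both sexes, by 3.03 in females and by 4.14 in males. Cyp2b13 fell by 1.42 in females, had 0 counts in every ND-fed male and at most 1.25 CPM in CDAHFD-fed males, and its contrast had an adjusted p-value of 0.102. The Cyp2b genes are close copies, and how reads shared between them were counted is not given in the sources used here.

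Cyp2a4, a testosterone 15-alpha hydroxylase, and its paralog Cyp2a22 moved the same way. Cyp2a22 had 122, 94.0, 229 and 164 CPM in ND-fed females and 72.9, 58.1, 30.6 and 40.3 CPM in CDAHFD-fed females, against 4.41, 3.47, 4.65 and 2.40 CPM in ND-fed males and 12.3, 17.9, 14.1 and 24.9 CPM in CDAHFD-fed males. Neither sex had overlapping diet groups, and the male minus female diet effect was 3.77 ± 0.44 (SE, adjusted p = 8.29e-05). Cyp2a4 fell by 1.45 in females and rose by 2.36 in males, but CDAHFD-fed females spread from 80.9 to 595 CPM and the highest of them overlapped the ND-fed range of 568 to 908 CPM.

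Slc22a26 and Slc22a27 encode organic anion transporters and lie 61721 bases apart on chromosome 19. Slc22a27 had 75.8, 77.1, 91.1 and 95.4 CPM in ND-fed females, 80.4, 57.4, 34.3 and 42.0 CPM in CDAHFD-fed females, 1.10, 0.826, 1.37 and 1.96 CPM in ND-fed males and 7.20, 15, 7.27 and 12.4 CPM in CDAHFD-fed males. The male groups were far apart while the female groups overlapped, and the effect was 3.65 ± 0.43 (SE, adjusted p = 8.29e-05). For Slc22a26 it was 3.98 ± 0.54 (SE, adjusted p = 0.000574), with a fall of 2.49 in females and a rise of 1.49 in males.

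The Cyp2c genes of chromosome 19 followed another course. Cyp2c69, Cyp2c40, Cyp2c39 and Cyp2c68 fell in females by 5.88, 4.08, 2.04 and 1.30, respectively. In males Cyp2c69 and Cyp2c40 also fell, by 1.53 and 1.46, while the changes of Cyp2c39 (0.81) and Cyp2c68 (-0.25) did not pass the test. Cyp2c40 was at 561 to 730 CPM in ND-fed females and at 21.8 to 68.5 CPM in CDAHFD-fed females, and at 10.5 to 27.5 CPM and 4.80 to 7.02 CPM in the male groups. Cyp2c29, a member of the same cluster, was below 0 instead: it stood at 1820 to 2461 CPM in all 8 ND-fed libraries, at 336 to 670 CPM in CDAHFD-fed females and at 122 to 245 CPM in CDAHFD-fed males, with an effect of -1.55 ± 0.31 (SE, adjusted p = 0.0166). Reads can be shared among these paralogs, and the annotated span of Cyp2c39 overlaps that of Cyp2c38.

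Atp6v0d2 and Ntrk2, both listed as female-biased, rose in males, and their changes in females did not pass the test. Atp6v0d2, a subunit of the vacuolar proton pump, had 22.1, 17.6, 59.4 and 29.4 CPM in ND-fed females, 31.3, 38.4, 38.3 and 27.9 CPM in CDAHFD-fed females, 4.96, 1.65, 3.83 and 8.51 CPM in ND-fed males and 31.9, 46.4, 44.9 and 34.3 CPM in CDAHFD-fed males. The ND-fed males alone were low, and CDAHFD-fed males reached the level of females (3.01 ± 0.47, SE, adjusted p = 0.00259). Ntrk2, the receptor of brain-derived neurotrophic factor, rose by 3.98 in males and had a change of 0.69 in females. 1810053B23Rik, a gene annotated as a long noncoding RNA that is on none of the lists, had 0 counts in all 4 ND-fed males, 1.05 to 3.41 CPM in CDAHFD-fed males and 2.58 to 9.25 CPM in all females, so that the fold change by diet in males was at least 2.53-fold higher than in females.

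Many male-biased genes fell in males, while in females about as many rose as fell. Of 59 listed, 57 were in the tables, 47 were tested and 12 were called, all below 0, against the 0.163% of all genes called in that direction. Among the 12 was Cyp2c29, whose sex difference on ND did not pass the test and whose fitted level on CDAHFD was lower in males. In males the diet effect was called lower in 35 of the 47 (13.9% of all genes) and higher in 1 (17.2%). In females it was called lower in 8 (11.7% of all genes) and higher in 9 (12.8%), with a median of -0.14. The median male minus female diet effect was -1.95, or -1.55 with the 6 genes that had a group at the floor put at 3 counts.

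Mup20, the pheromone protein darcin of male urine, had the smallest p-value of the male-biased genes. It had 49.3, 22.2, 17.2 and 18 CPM in ND-fed females and 397, 870, 793 and 757 CPM in CDAHFD-fed females. Males had 2622, 673, 2100 and 646 CPM on ND and 1096, 693, 1272 and 957 CPM on CDAHFD. CDAHFD-fed females thus entered the range of males, a rise of 4.70, whereas the change of -0.59 in males did not pass the test (male minus female -5.29 ± 0.59, SE, adjusted p = 7.73e-05). Mup21 behaved otherwise, falling by 2.86 in males with a change of 0.21 in females that did not pass the test. Mup genes are near-identical copies and their counts are uncertain, and Mup20 overlaps the annotated Mup-ps21.

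Genes of the terminal complement pathway, whose products form the membrane attack complex, were among the male-biased genes called. C6 had 15.9, 21.9, 13.8 and 12.4 CPM in ND-fed females, 39.0, 58.8, 131 and 68.6 CPM in CDAHFD-fed females, 344, 300, 319 and 195 CPM in ND-fed males and 264, 195, 202 and 120 CPM in CDAHFD-fed males. Females rose without overlap between diets, and the male groups overlapped (-2.81 ± 0.42, SE, adjusted p = 0.00187). C8a rose by 1.29 in females and fell by 0.80 in males, C8b fell by 1.15 in males with 0.36 in females not passing the test, and C9 rose by 0.92 in females with -0.49 in males not passing it. C8a and C8b are neighbors on chromosome 4, 11131 bases apart.

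Cyp2d9, Srd5a1 and Cyp4a12a, enzymes of steroid and fatty acid metabolism listed as male-biased, fell in males. Cyp2d9, a testosterone 16-alpha hydroxylase, had 26.4, 29.5, 36.1 and 30.6 CPM in ND-fed females and 21.2, 47.6, 71.5 and 21.6 CPM in CDAHFD-fed females, which overlapped. In males it had 2042, 1548, 1773 and 1364 CPM on ND and 555, 259, 263 and 242 CPM on CDAHFD, a fall of 2.35 with no overlap. The male minus female diet effect was -2.75 ± 0.45 (SE, adjusted p = 0.00428), and males on CDAHFD still exceeded females. Srd5a1, the steroid 5-alpha reductase, fell by 1.33 in males, from 91.4 to 123 CPM on ND to 38.5 to 50.5 CPM on CDAHFD, while the 8 female libraries lay between 30.0 and 49.3 CPM. Cyp4a12a, which makes the arachidonic acid product 20-HETE, had 0 counts in all ND-fed females and 0, 0.237, 3.79 and 0.940 CPM in CDAHFD-fed females. It fell in males from 159 to 315 CPM to 27.3 to 58.0 CPM. With ND-fed females put at 3 counts per library, the fold change of the group means was 8.28-fold higher in females than in males. The mean of CDAHFD-fed females rests mostly on the library at 3.79 CPM. Elovl3, a male-biased fatty acid elongase, fell by 4.94 in males, but its contrast of -3.27 ± 0.90 (SE) had an adjusted p-value of 0.12.

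Arsa, the lysosomal arylsulfatase A, was on none of the sex-biased lists and had an adjusted p-value equal to that of Mup20. It had 16.7, 17.3, 12.8 and 16.2 CPM in ND-fed females, 69.9, 75.9, 64.9 and 73.7 CPM in CDAHFD-fed females, 56.2, 53.5, 48.8 and 46.9 CPM in ND-fed males and 75.5, 81.6, 69.3 and 88.9 CPM in CDAHFD-fed males. ND-fed females alone were low, and the difference between the sexes was 1.70 on ND and 0.15 on CDAHFD (male minus female diet effect -1.55 ± 0.18, SE, adjusted p = 7.73e-05). The long noncoding gene C230037L18Rik overlaps Arsa by 1173 bases and had the same pattern, with 0 to 1.92 CPM in ND-fed females and 5.06 to 10.0 CPM in the other 3 groups. No setting for strand was stated, so reads of the overlapping stretch cannot be told apart. The same holds for Slc16a5 and Gm11695, which were both called above 0 and overlap by 1310 bases.

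**Figure D3:**
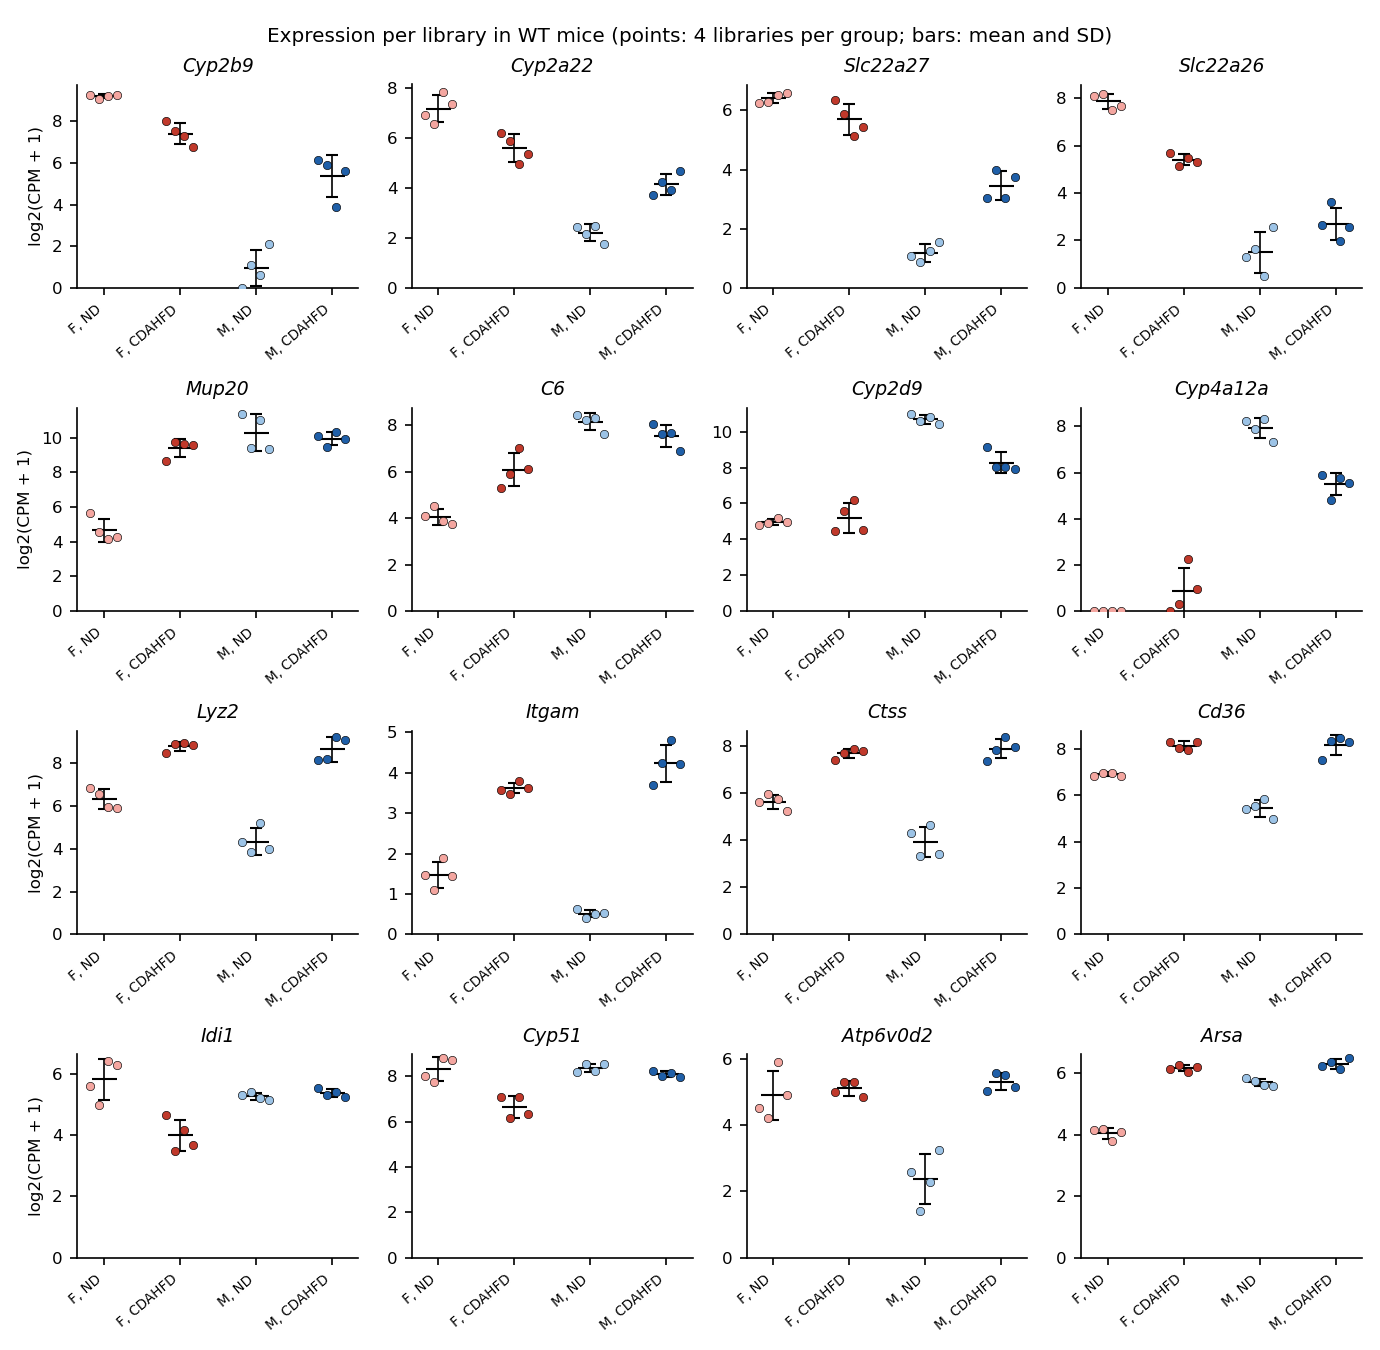
Expression as log2(CPM + 1) of 16 genes in the 16 WT libraries, with 4 libraries per group as points and the group mean and SD as bars (F, female; M, male). Cyp2b9, Cyp2a22, Slc22a27 and Slc22a26 converge from both sides, Mup20, C6 and Arsa are lowest in ND-fed females, and Lyz2, Itgam, Ctss, Cd36 and Atp6v0d2 are lowest in ND-fed males.

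In 16 of the 75 genes the diet effects of both sexes were called and had opposite directions. In 12 the level rose in males and fell in females, among them Cyp2b9, Slc22a26, Slc22a27, Cyp2a4, Cyp2a22, Gm6135, 9030619P08Rik, Abcc4, Cyp39a1, Slc1a2 and Ctsc. In 4 it rose in females and fell in males: Cyp4a12a, C8a, Fitm1 and Col5a3. The rise of Cyp4a12a in females was from no counts to the low and uneven values given above. Its contrast was called neither in every fit that left out a library nor under every other analysis at the same threshold. Fitm1, which takes part in lipid droplet formation, went from 2.30 to 7.42 CPM to 6.74 to 16 CPM in females and from 18.5 to 57.7 CPM to 8.33 to 19.0 CPM in males. Gm6135, a long noncoding RNA, went from 29.0 to 50.1 CPM to 5.91 to 10.8 CPM in females and from 0.496 to 1.37 CPM to 1.33 to 3.73 CPM in males, and its effect was 3.81 ± 0.45 (SE, adjusted p = 8.29e-05).

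Across the 16 WT libraries, the genes whose log2 CPM resembled that of Cyp2b9 most were Slc22a27 (Pearson's r = 0.97), Cyp2a22 (0.943), Slc22a26 and Sall1 (both 0.918) and Cyp2a4 (0.913). For Mup20 they were Arsa and C6 (both 0.904), Kctd15 (0.9), and C230037L18Rik and Thop1 (both 0.899). These correlations describe 4 groups of 4 libraries, share the group means that selected Cyp2b9 and Mup20, and carry no test.

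Promoter sequence (GRCm38.p6) was read for the 54 of the 75 called genes that had a promoter entry, each from 250 bases before to 50 bases after the start. The letters TTCNNNGAA, the core of the motif recognized by STAT5 and other STAT proteins, read the same on both strands and occurred in 8 of the 54 (14.8%), in 8.32% of the 9685 tested autosomal genes with a promoter entry and in 9.64% of all 25748 autosomal entries. In 6 of the 8 the match lay wholly before the start. The 250 bases before the start are shown for 3 of these, because they hold the letters and represent a female-biased gene, a male-biased complement gene and Arsa, which is on neither list. Capitals mark the match.
Slc22a26 (chr19:7802668-7802917, minus strand): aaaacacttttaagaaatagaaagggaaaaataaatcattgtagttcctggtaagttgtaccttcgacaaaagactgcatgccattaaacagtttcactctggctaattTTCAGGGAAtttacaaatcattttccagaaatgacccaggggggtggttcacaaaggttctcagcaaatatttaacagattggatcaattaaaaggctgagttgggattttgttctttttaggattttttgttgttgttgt
C8a (chr4:104876399-104876648, minus strand): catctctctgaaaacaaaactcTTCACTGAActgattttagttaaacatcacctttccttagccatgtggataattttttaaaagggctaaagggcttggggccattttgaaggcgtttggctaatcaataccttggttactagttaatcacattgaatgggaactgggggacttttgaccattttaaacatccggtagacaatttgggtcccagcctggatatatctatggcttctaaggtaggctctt
Arsa (chr15:89477425-89477674, minus strand): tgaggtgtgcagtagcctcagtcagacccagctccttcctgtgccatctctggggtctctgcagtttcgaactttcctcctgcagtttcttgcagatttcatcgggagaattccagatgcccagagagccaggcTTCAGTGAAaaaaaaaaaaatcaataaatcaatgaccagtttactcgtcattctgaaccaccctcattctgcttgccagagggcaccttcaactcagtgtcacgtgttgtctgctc
The matches begin 141, 228 and 116 bases before the starts of Slc22a26, C8a and Arsa. The 250 bases before the starts of Cyp2b9, Mup21, C6 and Cyp2d9 held no match, and a match or its absence describes the letters only. Of the growth hormone and STAT5 pathway genes themselves, including receptors and transcription factors, 29 were tested and 0 were called (0.583% of all genes). At an unadjusted p-value under 0.05 (edgeR), 3 were above 0 (6.28% of all genes) and 3 below 0 (3.43%), and the median was 0.11.

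Several genes of myeloid cells rose more in males than in females, from a lower level on ND. Itgam and Itgb2, the chains of the complement receptor CR3, Lyz2, the lysozyme of myeloid cells, Ctss, a protease of antigen presentation, and the myeloid membrane proteins Laptm5, Sirpa, Lilr4b, Lair1, Cd300a, Tlr4 and Slc11a1 were all called above 0. Of these, Itgam, Lyz2 and Ctss were on a list, and the others were grouped here by their known expression after their values were seen. Laptm5, Sirpa and Ctss were called in every fit that left out a library and under every other analysis at the same threshold. Itgam and Lilr4b were not called under every other analysis, and Tlr4 was not called in every fit that left out a library. Itgb2, Lyz2, Lair1, Cd300a and Slc11a1 fell short in both respects. In bulk liver, fewer cells of a type and less RNA per cell cannot be told apart.

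Lyz2 had 116, 94.4, 61.1 and 59.8 CPM in ND-fed females and 358, 473, 494 and 468 CPM in CDAHFD-fed females. Males had 18.7, 13.4, 36.2 and 14.8 CPM on ND and 281, 290, 599 and 545 CPM on CDAHFD. Both sexes rose without overlap, by 2.44 in females and 4.35 in males, and the sexes overlapped on CDAHFD (1.91 ± 0.42, SE, adjusted p = 0.0344).

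Itgam was at 1.15 to 2.70 CPM in ND-fed females and at 10.2 to 13.0 CPM in CDAHFD-fed females, against 0.330 to 0.551 CPM, at most 3 counts, in ND-fed males and 11.9 to 27.1 CPM in CDAHFD-fed males. Its fitted effect was 2.76 ± 0.51 (SE, adjusted p = 0.0096), or 2.51 with ND-fed males put at 3 counts per library. Ctss went from 37.1 to 61.4 CPM to 172 to 235 CPM in females and from 9.25 to 24.2 CPM to 167 to 338 CPM in males (1.89 ± 0.35, SE, adjusted p = 0.012). Laptm5 had the smallest adjusted p-value of these genes, 0.00216, with an effect of 2.22 ± 0.34 (SE). It went from 6.90 to 10.9 CPM to 19.0 to 26.0 CPM in females and from 1.96 to 3.63 CPM to 20.1 to 44.5 CPM in males.

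The list of 27 macrophage markers holds genes of resident Kupffer cells and of monocytes and recruited macrophages. Of these, 26 were tested and 2 were called above 0 (0.42% of all genes). Both, Lyz2 and Itgam, are genes of monocytes as well as macrophages. At an unadjusted p-value under 0.05, 18 were above 0 (6.28% of all genes) and 0 below 0 (3.43%). The effect was above 0 in 25 of the 26 with a median of 1.03. The diet effect was called higher in 15 in females (12.8% of all genes) and lower in 4 (11.7%). In males it was called higher in 19 (17.2% of all genes) and lower in 2 (13.9%). Timd4 and Cd163, markers of resident Kupffer cells, fell in both sexes. Timd4 went from a mean of 9.54 to 0.53 CPM in females and from 3.94 to 0.991 CPM in males, and Cd163 from 31.8 to 2.62 CPM and from 19.2 to 2.49 CPM. Fcna and Mrc1 fell in females, by 1.43 and 0.53, and their changes of -0.31 and -0.14 in males did not pass the test. The summed level of the 27 was 985 to 1458 CPM in ND-fed females, 1803 to 2035 CPM in CDAHFD-fed females, 450 to 803 CPM in ND-fed males and 1243 to 2414 CPM in CDAHFD-fed males. On ND the sexes did not overlap, and on CDAHFD they did.

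Antigen presentation and lymphocyte markers had the same order of levels. Among 12 tested genes of MHC class II presentation, Cd83 and Ctss were called above 0 (0.42% of all genes). The summed level of the list was 181 to 328 CPM on ND and 592 to 865 CPM on CDAHFD in females. In males it was 67.4 to 141 CPM on ND and 374 to 866 CPM on CDAHFD. For 36 lymphocyte markers the sums were 49.5 to 74.4 CPM on ND and 80.7 to 95.1 CPM on CDAHFD in females. In males they were 31.4 to 42.5 CPM on ND and 60.5 to 103 CPM on CDAHFD. Of the 8 tested, 0 were called (edgeR) and 1 had an unadjusted p-value under 0.05 (9.71% of all genes). Ltb had 0 counts in every WT library. The 16 neutrophil markers summed to at most 12.5 CPM in every ND-fed WT library and at least 150 CPM in every CDAHFD-fed WT library, reached 1039 CPM in CDAHFD-fed female replicate 4, and Ly6g had 0 counts throughout. Lcn2, which hepatocytes also make as an acute phase protein, carried that sum, at 134 to 1020 CPM in CDAHFD-fed females and 136 to 209 CPM in CDAHFD-fed males. The other 15 markers summed to 2.58 to 7.09 CPM on ND and 15.8 to 22.1 CPM on CDAHFD in females, and to 0.919 to 3.14 CPM and 10.2 to 19.0 CPM in males. None of the 4 neutrophil markers tested was called (edgeR), with 1 at an unadjusted p-value under 0.05 (9.71% of all genes). The part of these cell markers in the other results was not tested.

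Among 27 tested lipid-associated macrophage genes, which mark cells that take up lipid in steatohepatitis, Atp6v0d2 alone was called, 8 had an unadjusted p-value under 0.05, all above 0 (6.28% of all genes), and the median was 0.59. Trem2, a defining marker of those cells, was listed at 0 counts in every WT library, while other genes of the list were high on CDAHFD, such as Gpnmb at a mean of 203 CPM in females and 408 CPM in males. Whether the 0 of Trem2 is absence of its RNA or comes from the counting cannot be told apart. Cd36, the fatty acid translocase, had 114, 125, 126 and 115 CPM in ND-fed females, 314, 262, 247 and 315 CPM in CDAHFD-fed females, 41.2, 45.9, 55.8 and 30.5 CPM in ND-fed males and 184, 323, 357 and 317 CPM in CDAHFD-fed males. It rose in both sexes and reached the same level on CDAHFD (1.51 ± 0.26, SE, adjusted p = 0.00528). The heme oxygenase Hmox1, the glycolytic Pkm and the cytokine Tgfb1 rose by 2.68, 2.84 and 2.58 in males and by 1.39, 1.54 and 1.22 in females.

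In the cholesterol list, 3 of 31 tested genes were called, all above 0 (0.42% of all genes), namely the synthesis genes Idi1 and Cyp51, which fell in females, and Soat1. The diet effect was called lower in 20 of the 31 in females (11.7% of all genes) and in 7 in males (13.9%), and higher in 2 in females (12.8%) and in 4 in males (17.2%). At an unadjusted p-value under 0.05, 19 were above 0 (6.28% of all genes) and 0 below 0, and 28 of the 31 had an effect above 0 with a median of 0.90. Idi1, isopentenyl diphosphate isomerase, had 47.1, 30.3, 84.0 and 76.8 CPM in ND-fed females and 23.9, 10.2, 16.8 and 11.8 CPM in CDAHFD-fed females. All 8 male libraries lay between 34.0 and 45.3 CPM, and the effect was 2.06 ± 0.35 (SE, adjusted p = 0.00528). Cyp51, lanosterol demethylase, went from 216 to 444 CPM to 69.9 to 134 CPM in females and stayed between 254 and 373 CPM in males (1.41 ± 0.31, SE, adjusted p = 0.0409). Soat1, which esterifies cholesterol, is a gene of macrophages as well as of the pathway, and it rose in both sexes, by 1.86 in females and 3.36 in males.

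Transport and pericentral genes made up smaller groups. In the bile acid list 3 of 27 tested genes were called above 0 (0.42% of all genes). They were the oxysterol hydroxylase Cyp39a1 and the efflux pumps Abcc4 and Abcb1a. Cyp39a1 went from 60.4 to 87.8 CPM to 31.3 to 51.2 CPM in females and from 22.6 to 53.0 CPM to 52.5 to 88.2 CPM in males. Among 23 pericentral and Wnt target genes, Glul and Slc1a2 were called above 0 (0.42% of all genes), and 9 passed 0.05 before adjustment, all above 0 (6.28%). Glul, the glutamine synthetase of hepatocytes around the central vein, was at 822 to 1472 CPM in the other 3 groups and at 1829, 1781, 2104 and 1681 CPM in CDAHFD-fed males (0.96 ± 0.21, SE, adjusted p = 0.036). Slc1a2, a glutamate transporter, fell by 0.58 in females and rose by 0.43 in males.

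**Figure D4:**
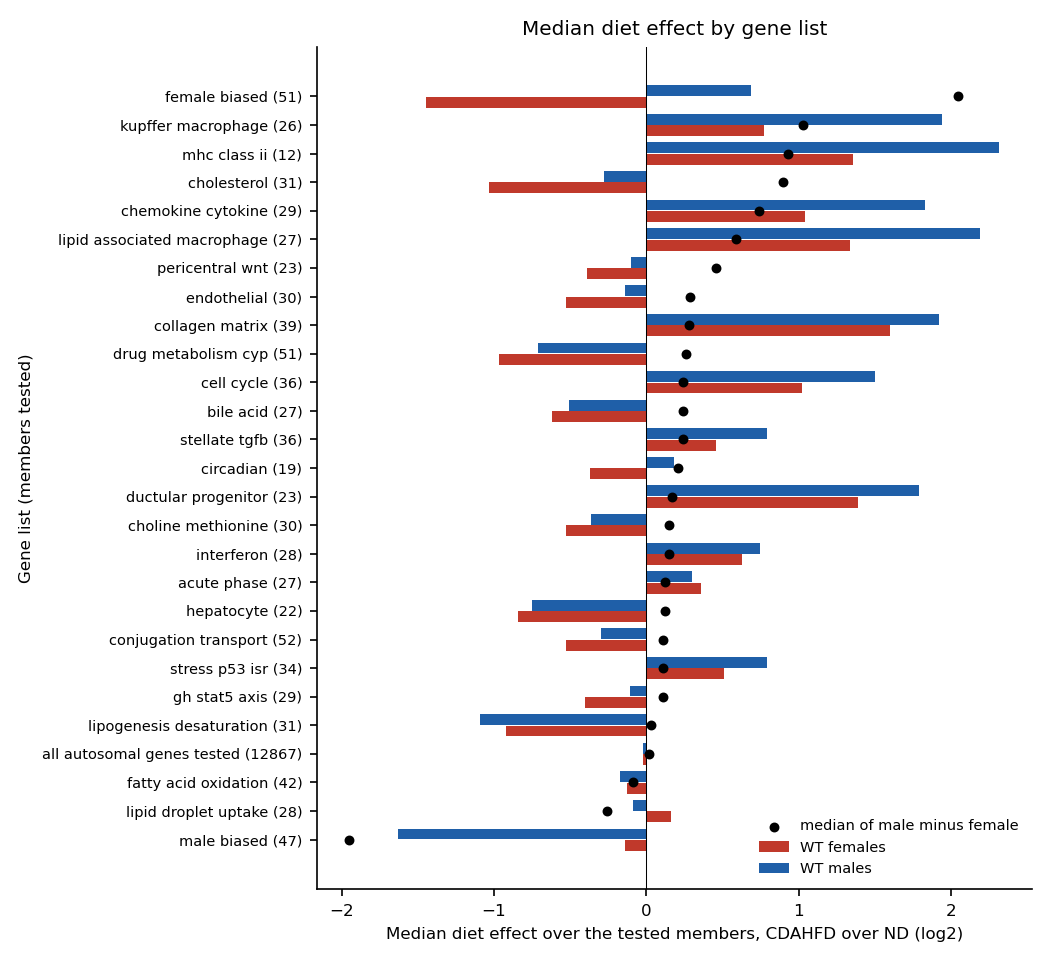
Median diet effect (log2, CDAHFD over ND) over the tested members of each gene list with at least 10 members tested, in WT females (red bars) and WT males (blue bars), with the median of the male minus female diet effect as a black point and the number of members tested in parentheses. Female-biased genes lie at 2.05 and male-biased genes at -1.95, and all autosomal genes tested lie at 0.02.

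In the list of drug-metabolizing Cyp genes, 7 of 51 tested were called above 0 (0.42% of all genes) and 2 below 0 (0.163%), all from the Cyp2 family and all described above. The lists not yet described had few or no members called. Cyp4a12a was called among 42 tested genes of fatty acid oxidation (0.583% of all genes). Cd36 and Fitm1 were called among 28 of lipid droplets and lipid uptake, Tgfb1 among 36 stellate cell and TGF-beta genes, and Hmox1 among 34 stress genes. In that order, 3, 2, 4 and 6 had an unadjusted p-value under 0.05 (edgeR) and lay above 0 (6.28% of all genes). Below 0 there were 5, 3, 1 and 0 (3.43%). Among 52 genes of conjugation and transport 2 were called above 0 (0.42% of all genes), including Sult1d1, a sulfotransferase. Sult1d1 fell by 1.10 in females, and its change of 0.25 in males did not pass the test. No tested member was called (edgeR) in the lists that follow, against 0.583% of all genes. Lists of 19 to 36 genes are too short for 0 called to set them apart from that share. They were lipogenesis (31 tested, 6 at an unadjusted p-value under 0.05), choline and methionine metabolism (30, 5) and chemokines and cytokines (29, 5). Next were interferon response (28, 3), cell cycle (36, 3), ductular and progenitor markers (23, 3) and endothelial markers (30, 2). The last were hepatocyte markers (22, 4), acute phase proteins (27, 4) and circadian genes (19, 0). Of all genes, 9.71% reached that unadjusted level. The cell cycle, endothelial and circadian lists lay below this share and the others above it, which was not tested. By DESeq2 the contrast called 186 genes over all genes, 77 of them members of a list, against 42 of 75 by edgeR. For the collagen and matrix genes, which mark fibrosis, 1 of 39 was called, Col5a3, below 0 (0.163% of all genes). The diet effect was called higher in 29 of the 39 in females (12.8% of all genes) and in 30 in males (17.2%). It was called lower in 1 in females (11.7%) and in 2 in males (13.9%).

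The contrast was repeated in the Cyp2b-null mice, which shared no library with the WT fit. There it was called in 469 of 12967 autosomal genes (3.62%). Of the 75 WT genes, 74 could be compared, since Cyp2b9 is deleted. All 53 genes above 0 in WT mice were above 0 in Cyp2b-null mice, against 64.6% of all autosomal genes above 0 in WT, and 36 were called, against 4.09%. All 21 genes below 0 were below 0 again, against 62% of all, and 19 were called, against 2.79%. Before adjustment, 51 of the 53 had p-values under 0.05 in the same direction, against 18% of all genes above 0 in WT, and all 21 did, against 13.7% of those below 0. The exceptions were Gm1821 (0.36 in Cyp2b-null, 1.22 in WT) and Ntrk2 (1.16 and 3.29). Without the pair of CDAHFD-fed Cyp2b-null libraries that the study's heat maps leave out (replicate 3 of females, replicate 4 of males), 33 of the 53 and 19 of the 21 were called.

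**Figure D5:**
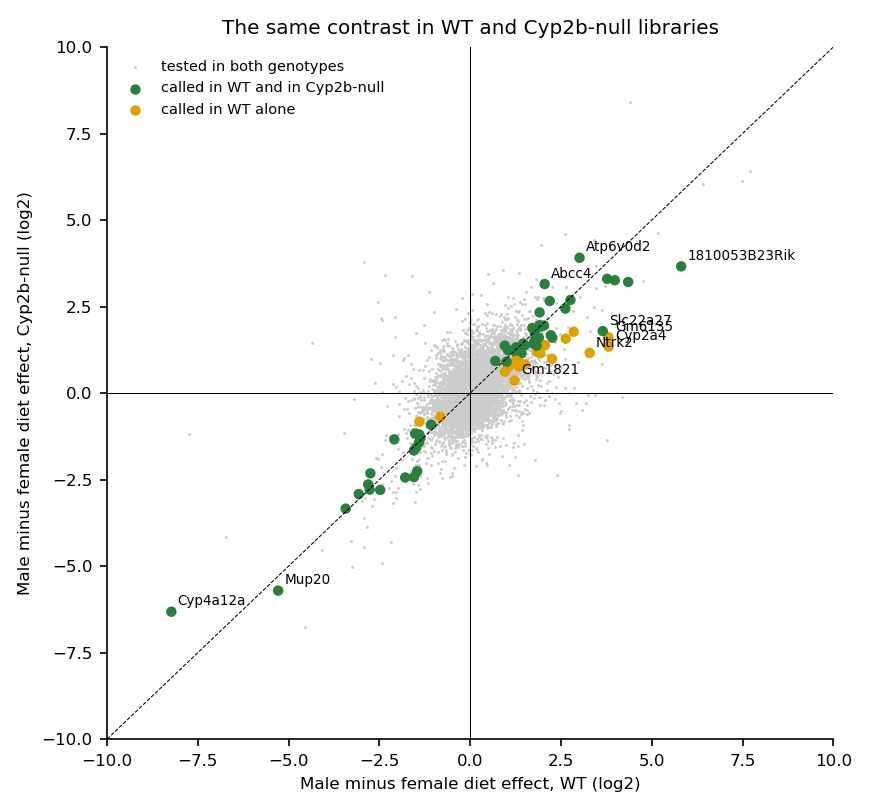
Male minus female diet effect (log2) in WT mice on the horizontal axis and in Cyp2b-null mice on the vertical axis, 1 point per autosomal gene reported and tested in both, without the deleted genes. Of the genes called in WT, 72 are colored, 53 of them green because they were also called in Cyp2b-null, and all 72 lie in the lower left or upper right quadrant.

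Mup20 had a male minus female diet effect of -5.71 in Cyp2b-null mice and -5.29 in WT mice, and C6 had -2.64 and -2.81. Among female-biased genes, Cyp2a22 had 3.30 and 3.77, Slc22a26 had 3.26 and 3.98, and Atp6v0d2 had 3.91 and 3.01. Cyp2a4 and Gm6135 had 1.34 and 1.61 in Cyp2b-null mice, which did not pass the test (adjusted p = 0.174 and 0.09), and 3.81 each in WT mice. For Lyz2 the effect was 1.96 in Cyp2b-null mice and 1.91 in WT mice, for Itgb2 2.33 and 1.91, and for Idi1 1.38 (adjusted p = 0.0621) and 2.06. The median over the macrophage markers was 1.08 in Cyp2b-null mice and 1.03 in WT mice, and over the cholesterol genes it was 0.70 and 0.90. For female-biased genes it was 1.44 and 2.05, and for male-biased genes -1.89 and -1.95. For MHC class II presentation it was 0.03 and 0.93, and for pericentral and Wnt target genes 0.12 and 0.46. Lipid-associated macrophage genes had 0.28 and 0.59, and the bile acid list had opposite signs, -0.10 and 0.24. Whether the contrast differed between the genotypes was tested over 13431 autosomal genes, and 1 gene (0.00745%) was called, the deleted Cyp2b9, with 660 at an unadjusted p-value under 0.05 and 2 called by DESeq2. A p-value that misses the threshold does not show that the genotypes responded alike.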

How the data were processed

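Liver RNA-seq of 16 WT libraries was analysed, with 16 Cyp2b-null libraries as a repeat. The authors deposited raw counts per gene, 1 table per sex. Reads had been trimmed with Trimmomatic, aligned with GSNAP to GRCm38.p6 and counted with Subread featureCounts, and versions, the setting for strand and the setting for reads that map more than once are not given in the sources used here. Groups came from the titles and characteristics of the libraries. The tables were joined on the gene symbol (41581 genes after 4 entries with a repeated symbol were dropped), and chromosomes were taken from RefSeq GRCm38.p6 by symbol, gene ID or synonym.

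Genes were kept by filterByExpr of edgeR at a minimum count of 10 and a minimum total of 15, scaled by TMM and fitted with the edgeR 4.0.16 quasi-likelihood test in R 4.3.3, in 1 model of the 4 WT groups. The Benjamini-Hochberg adjustment ran over all 13416 genes of the fit, and calls were made below an adjusted p of 0.05. Alternatives were DESeq2 1.42.0, limma 3.58.1 (voom with quality weights), RLE or library size scaling, other filters, a likelihood ratio test, a robust fit, a replicate block, all 32 libraries, a threshold of 0.1 and each library left out. In data simulated for this contrast over 13158 genes, 37% of 100 genes changed 2-fold and 93% of 100 changed 4-fold were called. Of these, 0 had the wrong sign, and 8 unchanged genes were called. The changed genes were shifted in CDAHFD-fed males only and were drawn above a minimum mean level, so these shares do not cover lower genes.

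Genes are named if called with a group mean of at least 1 CPM and among the 15 largest effects in either direction, if called in opposite directions in the sexes, or if on a list. The 2 members of each list with the smallest p-values and the deleted genes were added, and the other called genes are given so that all are accounted for, except 2 called genes that are counted but not reported here. The contrast, lists and rules were chosen with earlier results of these data known. Counts of 3 or fewer in every library of a group were taken as the floor, which covers counting error only. Depth limits low genes most.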

Additional observations from a re-analysis of the deposited data

Results flagged for a closer look

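The diet effect differed between WT females and males, by the test of the difference itself, for 75 genes, of which 73 follow (male minus female diet effect, log2). Among female-biased genes the values were Cyp2b9 7.08, Cyp2c69 4.35, Slc22a26 3.98, Cyp2a4 3.81, Cyp2a22 3.77, Slc22a27 3.65, Ntrk2 3.29, Atp6v0d2 3.01, Cyp2c39 2.85, Cyp2c40 2.62 and Sall1 1.04. Among genes listed as male-biased they were Cyp4a12a -8.23, Mup20 -5.29, Mup21 -3.07, C6 -2.81, C8a -2.09, C8b -1.52, C9 -1.41, Cyp2d9 -2.75, Selenbp2 -2.77, Fitm1 -2.48, Srd5a1 -1.49 and Cyp2c29 -1.55. The sex difference of Cyp2c29 on ND did not pass the test. Genes of myeloid cells and lysosomes had Itgam 2.76, Lilr4b 2.63, Laptm5 2.22, Cd83 2.03, Tlr4 1.93, Lyz2 1.91, Itgb2 1.91, Ctss 1.89, Lair1 1.84, Pld4 1.83, Cd300a 1.78, Slc11a1 1.46, Sirpa 1.40, Ctsc 1.0 and Scpep1 0.69, while the lysosomal Arsa had -1.55. Genes of lipid metabolism, transport and the pericentral zone had Idi1 2.06, Cyp51 1.41, Soat1 1.5, Cd36 1.51, Cyp39a1 1.78, Abcc4 2.05, Abcb1a 2.26, Glul 0.96, Slc1a2 1.01, Sult1d1 1.35, Cyp2c68 1.06, Slc16a5 1.71 and Slc39a4 0.95. The other genes above 0 had Pip4k2a 1.26, Gm38481 1.95, Car2 1.27, Gm6135 3.81, Gm6560 1.80, Tgfb1 1.36, Hmox1 1.29, Pkm 1.30, Gm11695 2.19, Gm1821 1.22, Fam84b 1.74, 9030619P08Rik 2.25 and 1810053B23Rik 5.81, and the other genes below 0 had Ociad2 -1.37, Nectin2 -0.82, Nox4 -1.08, Col5a3 -1.46, Hist1h1c -1.40, Srek1ip1 -1.40, C230037L18Rik -3.43 and Olig1 -1.79. Values of 1810053B23Rik, Itgam, Lilr4b and Cyp4a12a are fitted against a group with at most 3 counts in every library.

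A library far from the other 3 of its group was found in 15 of 302 combinations of gene and group (4.97%), and chance gives about 1 in 20. In ND-fed females these were Car2 (highest, 13.9 CPM), Mup20 (highest, 49.3), Mup21 (lowest, 1.69), Nox4 (lowest, 17.5) and Srd5a1 (highest, 41.6). In CDAHFD-fed females they were Ociad2 (lowest, 32.8 CPM) and Pld4 (lowest, 5.91). In ND-fed males they were Nox4 (highest, 89.0 CPM), Gm11695 (lowest, 0.165) and Olig1 (lowest, 7.54). In CDAHFD-fed males they were Mup21 (highest, 34.9 CPM), Cyp2d9 (highest, 555), Gm1821 (highest, 333), Hmox1 (lowest, 51.0) and Cyp2b13 (highest, 1.25), and Mup21, Cyp2d9 and Hmox1 came from replicate 1. Outside single genes, 1 ND-fed Cyp2b-null male library had the highest total of its group at 10158869 counts. Summed markers were far from the group in 1 library for stellate cells in ND-fed females (574 CPM), for ductular cells in CDAHFD-fed females (2547 CPM) and for muscle in CDAHFD-fed males (0.416 CPM).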

How the results depend on the processing

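None of the 75 genes changed direction under any alternative. Of the 75, 43 were called in all 16 fits that left out a library, 43 under all 11 other analyses at the same threshold and 37 in both. Among genes named above, Mup21 was not called in 14 of the 16 single-library fits, Glul and Nox4 in 12, Cyp51 in 11, Abcc4 in 10, Lyz2, Selenbp2 and Cyp2c68 in 9 and 1810053B23Rik in 8.

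The main count of 75 (54 above 0, 21 below 0) became 440 (308, 132) without the low-count filter, 232 (176, 56) by the likelihood ratio test, 186 (133, 53) by DESeq2, 130 (90, 40) in the fit of 32 libraries and 143 (104, 39) at a threshold of 0.1. It was 66 by voom, of which 54 were among the 75. Leaving out single libraries gave 50 to 186 (33 to 125 above 0, 17 to 61 below 0), and the highest values came without CDAHFD-fed male replicate 1. List members called numbered 42, and 165, 85 and 77 without the filter, by the likelihood ratio test and by DESeq2, with 32 to 70 without single libraries. The sex difference was called for 2071 genes on ND (1309 to 2255 without single libraries) and 1184 on CDAHFD (417 to 1369), with 1526 on ND and 1807 on CDAHFD by voom and 2073 at a threshold of 0.1 on CDAHFD. In Cyp2b-null mice, 469 became 933 without the filter, 859 by the likelihood ratio test, 921 at a threshold of 0.1 and 248 to 542 without single libraries, the lowest without CDAHFD-fed male replicate 3. The genotype difference, 1 gene, became 24 without the filter, 2 by DESeq2, 2 by the likelihood ratio test, and 0 by voom, by the robust fit and without the 2 Cyp2b-null libraries. The cause was not tested, except that dropping the filter adds low genes. Scaling by library size only moved the median diet effect of all genes to 0.32 in females and 0.37 in males and the contrast to 0.07.

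Same-numbered libraries of different groups did not deviate together: 3 of 24 pairs had a correlation over 0.1 (-0.125 to 0.215), so numbers were not taken as pairing. With the replicate number as a block 82 genes were called, 62 of them among the 75.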
